A study of Arabidopsis thaliana with 12 samples.

Results

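AT2G28660, classed as a heavy-metal-associated domain protein, is the only gene annotated to 1 of the 3439 features on an array of Arabidopsis thaliana transcripts, and no feature with several genes holds it. It was chosen by its higher intensity on cytokinin arrays than on water arrays, the values described below, so that contrast carries no test for it. Of the 3439 features, 692 have exactly 1 gene, 870 have several and 1877 are unnamed here. Total RNA came from wild-type cell culture of the ecotype Columbia 0, with 6 arrays of culture given water and 6 of culture given cytokinin for 2 h. The labels name the control both as given water and as untreated. They state neither its duration nor which cytokinin was used, nor whether arrays came from separate cultures. Both groups are wild type, without a transgene in the labels, and are numbered 1 to 6. P-values therefore measure the spread between these arrays, which may be technical.

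Heavy-metal-associated domains are short folds that bind metal ions such as copper, usually through a pair of cysteines, and occur in soluble metal chaperones and in metal-pumping ATPases. In plants the family is large, and many members have no assigned role. The platform annotation and the RefSeq table used here state no function for AT2G28660. Cytokinin is a hormone of cell division, shoot growth and greening. It is sensed by histidine kinase receptors, and a phosphorelay then activates type-B response regulators, which raise transcription of genes such as the type-A response regulators. Of 35 genes of cytokinin sensing, signalling and breakdown looked for, 0 were annotated to any feature, so the treatment label could not be checked against its known target genes.

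The intensities were deposited on a linear scale with totals of 3743 to 3875 per array, and the authors' scaling of them is unknown here. As deposited, the intensity of AT2G28660 in water was 0.406, 0.413, 0.452, 0.427, 0.432 and 0.390 on arrays 1 to 6. In cytokinin it was 0.561, 0.538, 0.576, 0.611, 0.513 and 0.476 in the same order. The groups did not overlap, though the lowest cytokinin array lay only 1.05 times above the highest water array. The means were 0.420 ± 0.0216 in water and 0.546 ± 0.0476 in cytokinin (SD, n = 6 arrays each), a ratio of 1.30. RNA of the whole culture was measured, so a change in the share of cells of one kind and a change in RNA per cell cannot be told apart.

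Deposited medians differed between the groups, at 0.724 to 0.744 in water and 0.674 to 0.693 in cytokinin, so the arrays were quantile-normalized, which gives all arrays the same distribution. The median log2 change of all features tested was -0.07 as deposited and 0.00 after normalization (0.00282 before rounding). After it, AT2G28660 read 0.395, 0.405, 0.443, 0.414, 0.411 and 0.368 on water arrays 1 to 6. It read 0.583, 0.553, 0.594, 0.626, 0.539 and 0.497 on cytokinin arrays 1 to 6. Every cytokinin array again lay above every water array, now by a factor of at least 1.12. The means were 0.406 ± 0.0246 and 0.565 ± 0.0455 (SD, n = 6), a ratio of 1.39. The normalization thus moved the ratio of means from 1.30 to 1.39, because it raised the cytokinin values and lowered those of water.

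**Figure D1:**
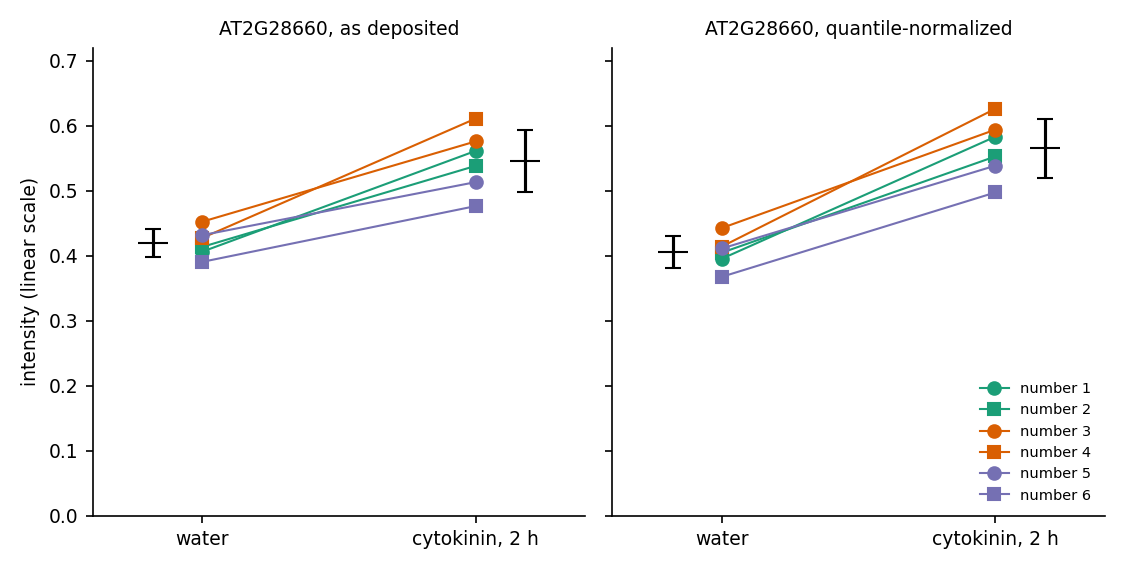
Intensity of AT2G28660 (linear scale, from 0) on the 6 water and 6 cytokinin arrays, as deposited (left) and quantile-normalized (right). Lines join arrays of the same number, and black bars give mean ± SD; all 6 lines go up, from 0.368 to 0.443 in water to 0.497 to 0.626 in cytokinin after normalization.

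For comparison across features, normalized values under 0.258 were set to 0.258 (the 10th percentile of all positive values), and log2 was taken. AT2G28660 stood above the floor on all 12 arrays, and its lowest value was 1.43 times the floor. Its log2 change, cytokinin minus water, was 0.48 (SE 0.06, n = 6 arrays per group). Changes over all 3091 features tested had a median of 0.00282, and 0.809% of them were at least as far from 0 in either direction. By size of rise the feature ranked 12 among the 3091 and 4 among the 613 tested features with exactly 1 gene. In the second ranking it stood between AT4G29890, at 0.49, and CSLA01, a mannan synthase gene, at 0.38. The difference to AT4G29890 was smaller than the SE of AT2G28660. Of the 3091 features, 46 (1.49%) had groups that did not overlap with cytokinin higher, and AT2G28660 is 1 of them by choice.

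**Figure D2:**
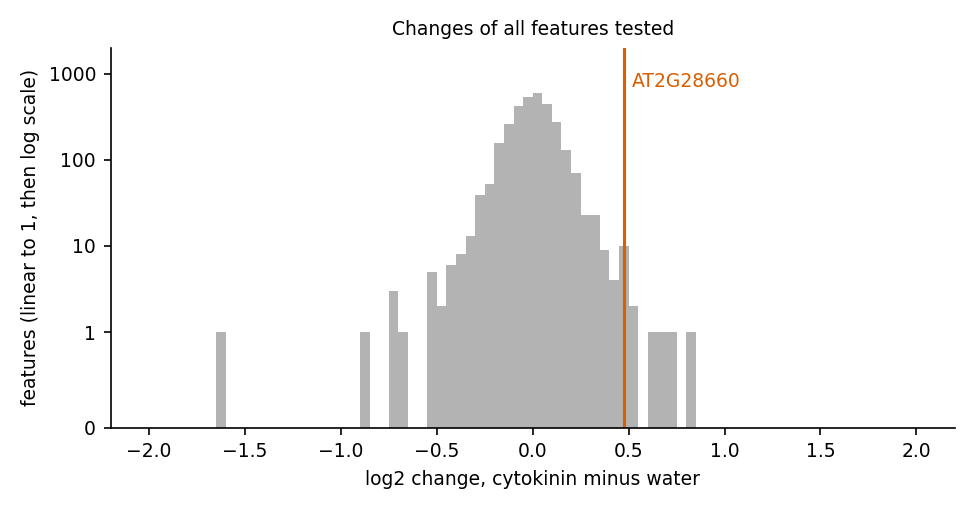
Log2 change of all 3091 features tested (horizontal axis, bins of 0.05) against the number of features (vertical axis, linear to 1 and logarithmic above). The line marks AT2G28660 at 0.48, in the upper tail of a distribution centred near 0.

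Arrays of the same number in both groups deviated together across features (r from 0.70 to 0.84), so the change was also read within numbers. The normalized cytokinin to water ratio was 1.47, 1.37, 1.34, 1.51, 1.31 and 1.35 for numbers 1 to 6. On the log2 scale these ratios averaged 0.48 ± 0.08 (SD, n = 6 pairs), and all 6 lay above 0. A sign above 0 in all 6 pairs was shown by 313 of the 3091 features (10.1%), and this gene was chosen for it. The largest ratio, for number 4, and the smallest, for number 5, were 0.60 and 0.39 on the log2 scale. As deposited, the log2 ratios were 0.47, 0.38, 0.35, 0.52, 0.25 and 0.29, each smaller than after normalization. Numbers 1 and 2, 3 and 4, and 5 and 6 had mean log2 ratios of 0.51, 0.51 and 0.41. The SE of the mean change was 0.04 with the replicate number as a block and 0.06 without it. The labels do not state whether such neighbouring numbers share a culture. With the mean of each set in place of its single arrays, the SE was 0.06 with the set as a block and 0.09 without it.

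The levels themselves also varied by number within each group. Number 6 gave the lowest normalized intensity of AT2G28660 in both groups, 0.368 in water and 0.497 in cytokinin. Number 3 was the highest in water, at 0.443, and number 4 the highest in cytokinin, at 0.626. The SD within groups on the log2 scale was 0.09 in water, 0.12 in cytokinin and 0.10 pooled. That spread was small for this array: 16% of the 2747 features above the floor on all arrays had a lower one, and their median was 0.17. Replicate number took up 84.1% of the within-group sum of squares for AT2G28660, against a median of 86.2% over the 2747 features. The gene thus shared the pattern of its numbers to about the same degree as a typical feature.

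The genes whose pattern was most like that of AT2G28660 were looked for in 561 other features with exactly 1 gene that were above the floor on at least 10 arrays. Over the 12 arrays, Pearson's r of log2 normalized values had a median of 0.01 across these genes, and 12 of them exceeded 0.8. It ran from -0.96 to 0.94, so the strongest r was a negative one, and only the positive end is described here. These points share the contrast that chose AT2G28660 and the replicate numbers, so r is a description. The highest r belonged to CSLA01 (0.94), to FZL, a dynamin-related gene of thylakoid organization (0.93), to AT3G52070 (0.90) and to AT1G35510 of the O-fucosyltransferase family (0.90). With each value taken as its deviation from its group mean, their r was lower, at 0.67, 0.53, 0.55 and 0.52 in that order. CSLA01 read 0.354 to 0.425 in water and 0.460 to 0.530 in cytokinin, with groups that did not overlap. Its lowest cytokinin array was number 6, as for AT2G28660. FZL read 1.55 to 1.71 in water and 1.87 to 2.14 in cytokinin, and AT1G35510 3.06 to 4.79 and 5.26 to 6.75, again without overlap. AT3G52070 lay between 0.654 and 0.810 in water and between 0.818 and 0.911 in cytokinin, where the groups nearly touched. Their log2 changes were 0.38, 0.32, 0.29 and 0.63 in the order CSLA01, FZL, AT3G52070 and AT1G35510, so AT1G35510 alone of these 4 had a larger change than AT2G28660.

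Taking each value as its deviation from its group mean removes the treatment contrast and leaves the pattern across replicate numbers. By this measure r had a median of -0.01 over the 561 genes, and 7 genes exceeded 0.8. The 4 genes with the highest r were AT5G46560 (0.88), AGL26 (0.87), AT1G01500 (0.85) and AT3G15140 (0.85). The r of AT5G46560 was 0.07 once a running median along feature numbers (described below for AT2G28660) was removed, so its place in this list rests on that trend being kept. AGL26, as the RefSeq table names AT5G26880, shows the pattern in wide steps. It read 0.914, 0.903, 1.29, 1.22, 0.967 and 0.791 in water and 1.01, 0.980, 1.52, 1.32, 0.863 and 0.810 in cytokinin. Numbers 3 and 4 were its highest and number 6 its lowest in both groups, and the groups overlapped. AT1G01500 spanned 1.68 to 2.05 in water against 1.69 to 2.27 in cytokinin, with number 6 lowest and number 3 highest in both. AT5G46560 had water values between 1.08 and 1.25 and cytokinin values between 1.10 and 1.35, so its groups overlapped too. AT3G15140 spanned 0.434 to 0.641 in water against 0.370 to 0.640 in cytokinin, with number 6 lowest in both. None of these 4 passed limma's test for cytokinin against water (log2 changes of -0.08 to 0.08, adjusted p from 0.937 to 0.999).

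The most opposite deviations belonged to AT3G44810 (r = -0.87) and AT2G05120 (r = -0.83). AT3G44810 was lowest on array 4 and highest on array 6 in both groups, at 0.461 and 0.610 in water and 0.499 and 0.678 in cytokinin. AT2G05120 was highest on array 6 in both groups as well, at 0.688 and 0.603. Neither passed limma's test (log2 changes of 0.13 and -0.12, adjusted p = 0.796 and 0.849).

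**Figure D3:**
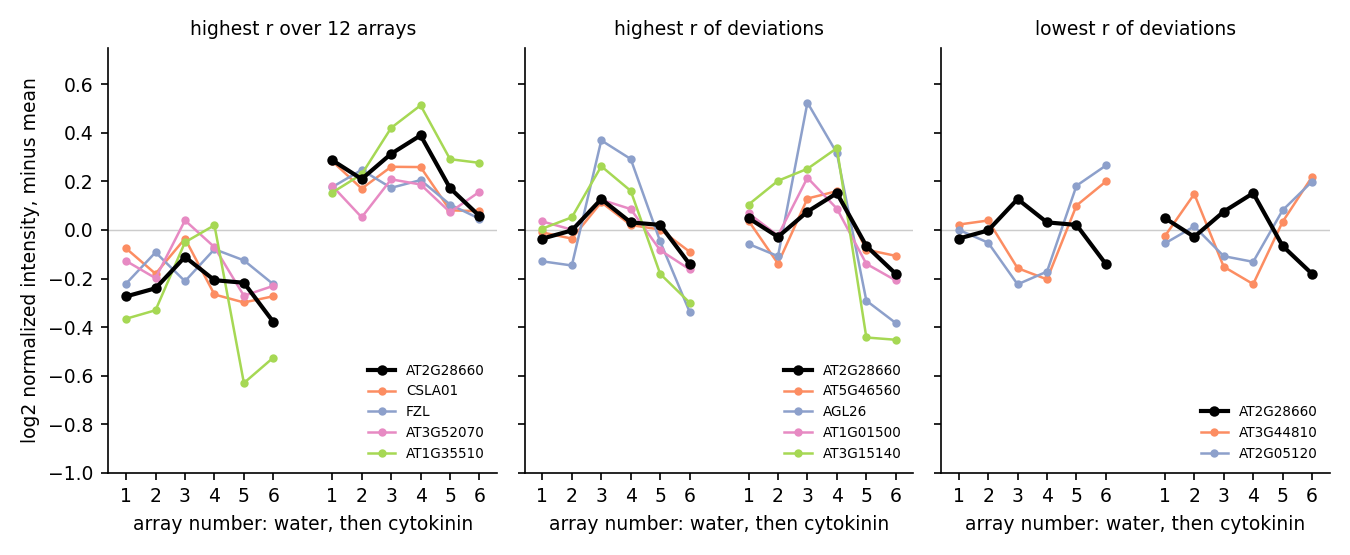
Log2 normalized intensity by array number, water on the left and cytokinin on the right of each panel, for AT2G28660 (black) and the genes most and least like it. In the left panel each gene is centred on its mean over 12 arrays (r of 0.90 to 0.94), and in the other panels on its group mean (r of 0.85 to 0.88, and of -0.83 and -0.87); lines join points for reading only, since the numbers have no order.

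Other genes of metal handling were sparse among the named features. A list of copper and heavy-metal genes (chaperones, metal-pumping ATPases, copper transporters, copper enzymes and metallothioneins) matched 65 genes of the RefSeq table, and 1 was the only gene of a feature. AT2G28660 itself was not matched by the list. This was CCS, the chaperone that loads copper into superoxide dismutase. CCS read 0.114 to 0.201 in water and 0.124 to 0.234 in cytokinin, below the floor of 0.258 on all 12 arrays, so it was not tested and no change is given for it. A second list, of iron, zinc, manganese and other metal genes, matched 78 genes of the RefSeq table, of which 0 were annotated to a named feature. The 1877 unnamed features may hold further genes of both lists. Whether AT2G28660 moved with other genes of metal handling can therefore not be read from these arrays.

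Genes close to AT2G28660 on chromosome 2 were taken as those whose locus number lies within 1000 of it. Of the 204 other protein-coding genes there, 9 were the only gene of a feature, and 8 were tested. The nearest of these 8 lay 10 protein-coding genes from AT2G28660 and the farthest 96, so no adjacent gene was among them. AT2G27680 was listed at 0 on all arrays. Of the 8 tested, 0 passed limma's test at an adjusted p of 0.05, where 1.55% of all features tested were called. At an unadjusted p under 0.05 the count was 0 of 8, against 295 of the 3091 features (9.54%). Log2 changes lay above 0 for 5 of the 8, with a median of 0.00 (0.00127 before rounding) against 0.00282 over all features. With the replicate number as a block, AT2G28790 fell (log2 change -0.24, adjusted p = 0.0132), the only one of the 8 called. In that fit 11.7% of all features were called, 5.21% as lower in cytokinin and the rest as higher. The call of AT2G28790 was lost with means of numbers 1 and 2, 3 and 4, and 5 and 6 and these sets as a block (adjusted p = 0.125). AT2G28790 lies 13 protein-coding genes along from AT2G28660, and read 0.468 to 0.637 in water and 0.352 to 0.542 in cytokinin. Its cytokinin array was lower in all 6 pairs, while the groups overlapped. Of all features tested, 10.1% were higher in all 6 pairs, and the share lower in all 6 was not counted. AT2G28755, 10 genes along, had a log2 change of -0.11 (adjusted p = 0.851 without a block and 0.161 with it). AT2G28390, also known as MON1, a gene of vacuolar trafficking, had 0.07 (adjusted p = 0.948) and GLR2.7, of the glutamate receptor-like channel family, -0.06 (adjusted p = 0.999). None of the 8 passed as higher with cytokinin in either fit. Over all 3091 features 34 did so without a block and 200 with it, so 0 of 8 is near those shares.

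Feature numbers may follow the place on the array, which the sources used here do not state, so features with neighbouring numbers were set beside AT2G28660. Its feature is number 3760. The 25 tested features on each side had log2 changes from -0.21 to 0.40 with a median of 0.02, and 29 of these 50 lay above 0. Over all 3091 features the median was 0.00282, and limma called 1.55% at an adjusted p of 0.05. None of the 50 was as high as AT2G28660, and 1 was called by limma, the unnamed feature 3776 (log2 change 0.40, SE 0.07, adjusted p = 0.0143), 7 places along. AT2G28660 was chosen for its rise and ranked 12 among all 3091 features, so being highest in this window is no test of position. With a running median over 51 neighbouring feature numbers removed from each array, the change of AT2G28660 was 0.43 (SE 0.06). The pair ratios were then 0.52, 0.37, 0.39, 0.52, 0.39 and 0.42 on the log2 scale for numbers 1 to 6, again all above 0.

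**Figure D4:**
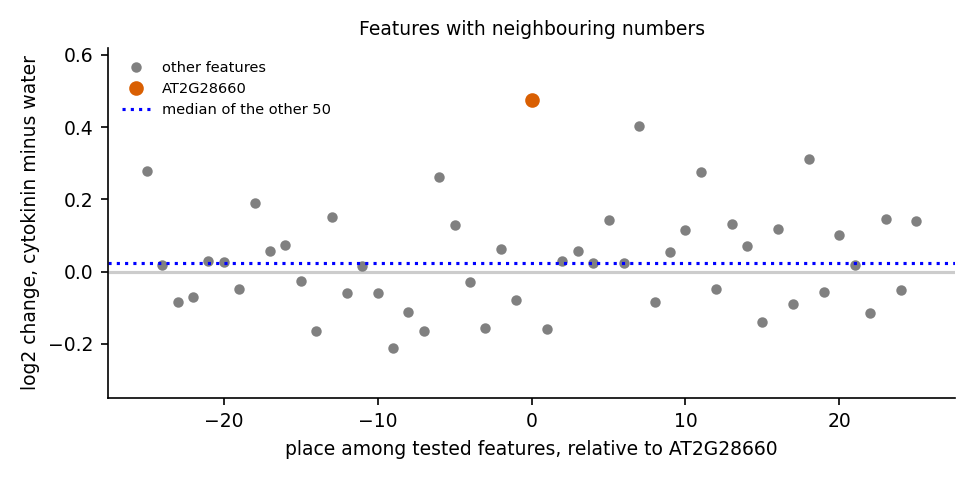
Log2 change, cytokinin minus water, of AT2G28660 (orange) and of the 25 tested features on each side by feature number (grey), with the median of those 50 as a dotted line at 0.02. AT2G28660, chosen for its rise, is the highest point at 0.48, and the next is feature 3776 at 0.40.

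The size of the change of AT2G28660 was set against 31 other settings, in which it ran from 0.32 to 0.52 and was never below 0. The gene was chosen for its rise on these arrays, so the sign is no test and only the size is described. Without normalization between arrays it was 0.37, and with each array scaled to the same median it was 0.47. With each single array left out in turn it ran from 0.44 to 0.51. Without the arrays numbered 1 and 2 it was 0.45, without 3 and 4 it was 0.46 and without 5 and 6 it was 0.52. A floor at the 25th percentile (0.450) lowered it to 0.32, since all 6 water values of AT2G28660 then lie at the floor.

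**Figure D5:**
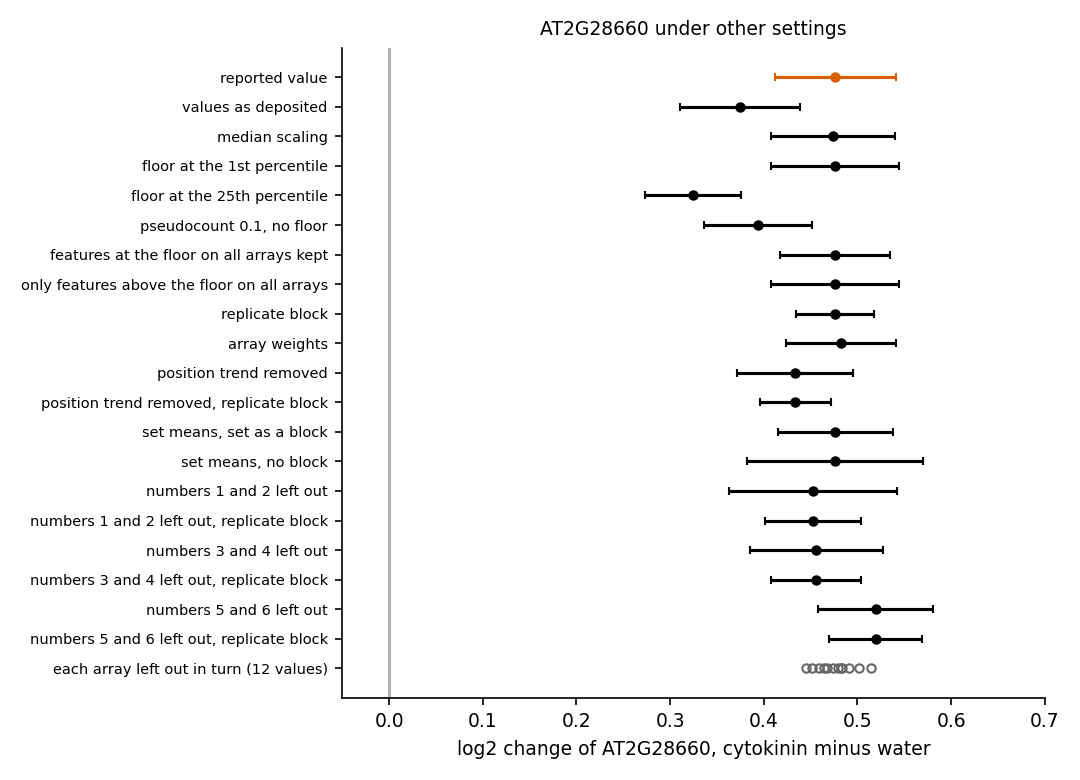
Log2 change of AT2G28660 (horizontal axis) under each setting, with bars of 1 SE, the reported value in orange and the 12 values with 1 array left out as open circles. All points lie between 0.32 and 0.52, to the right of 0, the side for which the gene was chosen.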

How the data were processed

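The deposited table holds linear intensities of 3439 features for 12 arrays, and 155 to 172 features per array are exactly 0. Background correction, scaling, array type and scanner are not given in the sources used here. Genes came from the platform annotation, with names updated by gene identifier in a RefSeq table of assembly TAIR10.1, which held 690 of 692 features with 1 gene. No coordinates are given.

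Values were quantile-normalized, floored and log2-transformed, which left out 348 features that reached the floor value on every array. Cytokinin and water were compared over the other 3091 features by the two-sided moderated test of limma 3.58.1 in R 4.3.3 (lmFit, eBayes), adjusted by Benjamini-Hochberg with a threshold of 0.05, without a block. The script was tested on simulated data with independent noise on every array. They lacked the pattern by replicate number seen here, so that test does not cover it. Changes are cytokinin minus water. Figures were drawn with matplotlib 3.10.9. The number of arrays limits the precision.

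Across features, a water array's deviations from its group mean correlated with those of the cytokinin array of the same number at 0.83, 0.84, 0.71, 0.70, 0.81 and 0.82. Numbers were treated as pairs on this basis, since no label states a pairing.

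The gene, the lists and the tests were chosen with earlier results of these data known. Named are AT2G28660, the 4 genes of highest r over 12 arrays, the 4 of highest and 2 of lowest r of deviations, and of each list all members, or the 4 of largest change where there are more than 6. AT4G29890, feature 3776 and AT2G27680 were named after their values were seen. Sets of numbers left out with the replicate block were added after seeing the data.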

Additional observations from a re-analysis of the deposited data

Results flagged for a closer look

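Dixon's gap criterion singled out 0 arrays among 40 sets of 6 values, 1 per group for AT2G28660 (deposited and normalized) and for 18 other genes, the 10 most or least like it and the 8 tested neighbours on chromosome 2. Chance alone flags about 1 in 20 such sets.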

How the results depend on the processing

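AT2G28660 was chosen for its rise on these same arrays, so its direction under the 31 other settings is no test. It kept that direction in all 31. It moved by more than the within-group SD of 0.104 in 1, a floor at the 25th percentile (0.32, SE 0.05). Without normalization it moved by nearly that SD, from 0.476 to 0.375 (SE 0.06). Leaving out each array gave 0.44 to 0.51. The count of changed features, 48, was 32 to 39 with each array left out. It was 85 after median scaling, 31 with a floor at the 1st percentile, 76 with array weights, 361 with the replicate block and 478 with the position trend removed as well. Without numbers 1 and 2, 3 and 4, and 5 and 6 it was 5, 7 and 21, and with the replicate block 160, 264 and 217. Means of these sets without a block gave 0 (99 at an unadjusted p of 0.05, limma). Settings that average or drop arrays have fewer samples, and for the others the cause was not tested. Rises made up 70.8% of the calls, but 39.1% without normalization and 82.4% with median scaling. The neighbours on chromosome 2 gave 0 calls, but 1 of 8 with the replicate block, where 361 of all 3091 features (11.7%) were called. With the position trend removed as well it was 2 of 8, against 478 of the 3091. This adds AT2G28755 (limma, adjusted p = 0.0324) to AT2G28790. With the block but without numbers 3 and 4 it was 1 of 8, against 264 calls over all features. Without 1 and 2 or 5 and 6 it was 0 (adjusted p of AT2G28790 = 0.0754 and 0.0654). Set means with the set as a block also gave 0. Single arrays were left out without a block only, and gave 0 each time. The r of deviations of AT5G46560 fell to 0.07 with the position trend removed and was 0.97 without numbers 1 and 2. The r of the other named genes kept its sign. The weakest was that of AT1G01500, at 0.64 without numbers 5 and 6 against 0.85 with all arrays. The copper list could not be tested as set since CCS lies below the floor, nor the other metal list, of which no gene is annotated to a named feature. The floor of 0.258 lies below all values of AT2G28660, and that at the 25th percentile above all its water values, which shrinks the change by construction.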
